A study of Mus musculus with 9 samples.

Results

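The expression of 10 genes of peptide signalling in hippocampal neurons was followed by nuclear RNA sequencing of caffeine-treated mice that model Alzheimer's disease. The 10 genes were selected by name, and all 10 were found among the 48709 genes of the count tables. They comprise 8 neuropeptide precursors (Cck, Penk, Pdyn, Tac1, Tac2, Crh, Adcyap1 and Nts), the granin Scg2 and the convertase Pcsk1. RNA came from NeuN-stained nuclei sorted from frozen hippocampi, with 3 libraries in each of 3 groups on the C57BL/6J background. The groups were WT mice, Tg4-42 mice, and Tg4-42 mice given caffeine at 300 mg per litre of drinking water from 2 months of age for 4 months, so that they were 6 months old. The labels state a treatment for the caffeine group only, and the methods describe the other groups as receiving tap water, called vehicle here. Tg4-42 mice express human Aβ4-42 fused to the signal peptide of murine thyrotropin-releasing hormone from the neuronal Thy1 promoter, in homozygous form and without mutated human amyloid precursor protein. Caffeine-treated WT mice were not analysed here, so a caffeine effect in the absence of the transgene was not measured.

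Neuropeptides are made as larger precursor proteins, sorted into dense core vesicles, cut at pairs of basic residues and released on sustained neuronal activity. Granins such as secretogranin II help to form these vesicles and are themselves cut into peptides, and prohormone convertase 1/3, the product of Pcsk1, is among the enzymes that make the cuts. In the hippocampus, cholecystokinin, enkephalin, tachykinins and corticotropin-releasing hormone occur in sets of interneurons, dynorphin in dentate granule cells, and several of these genes are also used by principal neurons of the subiculum and the adjoining cortex.

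Counts were expressed as CPM, the count relative to the scaled library size, and gene positions are those of GENCODE M21 on mm10. Library totals lay between 9342945 and 16376922 counts, and the smallest count of any of the 10 genes in any library was 32, for Crh. Every one of the 10 genes was among the 17361 genes tested. Lane numbers were read from the library names and are not given as a label of their own. By these, libraries 1 and 2 of each group were sequenced on lane 6 and library 3 of each group on lane 7. Every group thus has the same split over lanes, and lane 7 is in each group the third library. Among the 10 genes, 8 had their highest CPM in library 3 of the WT or of the vehicle-treated Tg4-42 group, and 4 had their lowest CPM in library 3 of the caffeine group, which was not counted over all genes. Values within each lane are therefore given beside the pooled ones. Rbfox3, which encodes the NeuN antigen, lay between 89.1 and 147 CPM in the 9 libraries, and the sum of 4 neuronal markers, Rbfox3 included, was 6153 to 7687 CPM in vehicle-treated and 5249 to 6351 CPM in caffeine-treated Tg4-42 mice. Rbfox3 was higher in every caffeine library, at 126 to 147 CPM, than in all others. The other 3 neuronal markers had lower point estimates after caffeine, with Syt1, a synaptic vesicle gene, lower in every caffeine library. Summed markers of oligodendrocytes were 329.6 to 460.4 CPM in the vehicle and 227 to 331 CPM in the caffeine group, those of astrocytes 87.5 to 98.02 and 64.7 to 82.4 CPM, those of microglia 23.99 to 31.5 and 17.3 to 21.7 CPM, and those of endothelial cells 0.324 to 0.722 and 0.552 to 0.614 CPM. Their part in the values of the 10 genes was not tested.

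The 10 genes differed widely in level. As CPM per kilobase of exon (RPKM), the WT means were 280.4 ± 25.7 (SD, n = 3) for Scg2, 247 ± 75.6 for Cck and 84.5 ± 12.4 for Penk. They were followed by Pdyn at 22.6 ± 5.18, Nts at 18.1 ± 2.10, Pcsk1 at 13.03 ± 6.99, Tac2 at 11.4 ± 2.67, Tac1 at 11.1 ± 2.05, Adcyap1 at 6.18 ± 3.19 and Crh at 4.54 ± 3.54 RPKM. Only the steps from Cck to Penk and from Penk to Pdyn were larger than the summed SD of the neighbours, and the other neighbours in this order did not differ beyond their spread. Across the 9 libraries, the ratio of the highest to the lowest CPM was 9.9997 for Pcsk1, 4.51 for Crh, 4.37 for Adcyap1, 4.06 for Tac1, 4.05 for Nts and 2.95 for Tac2, whereas it was 1.88 for Cck, 1.59 for Pdyn, 1.58 for Scg2 and 1.54 for Penk. The 4 genes with the smallest ratios were also the 4 with the highest RPKM in WT mice.

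**Figure D1:**
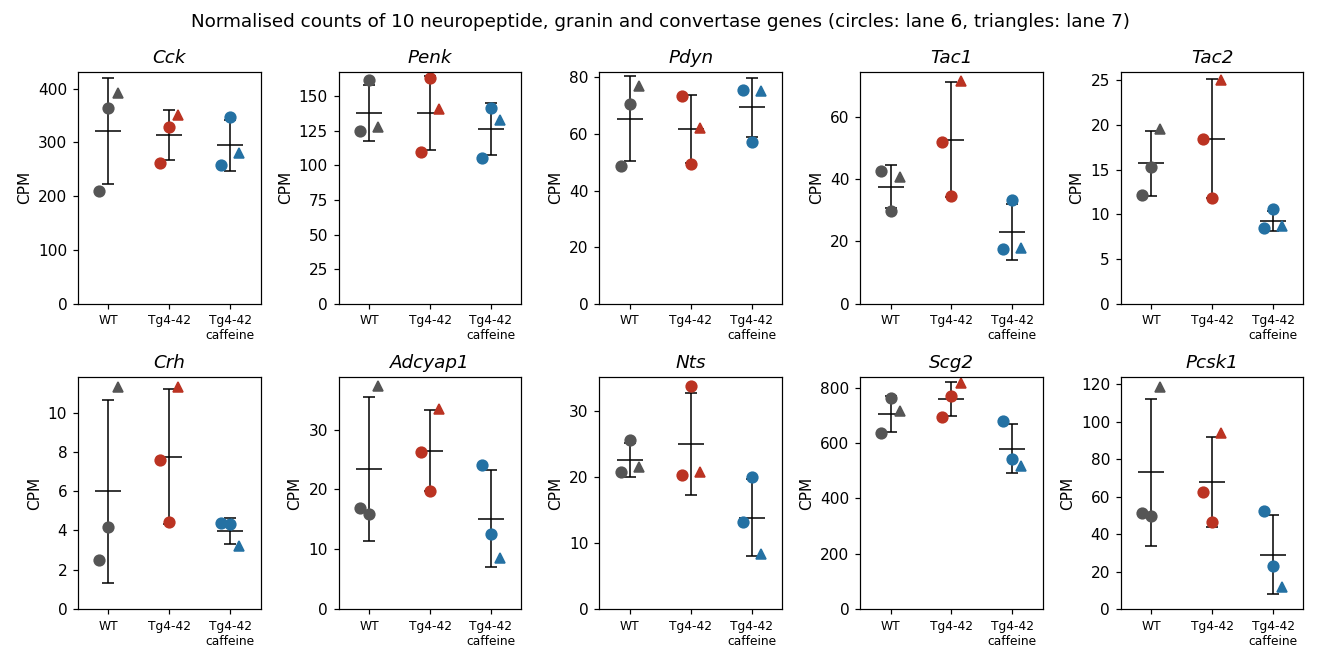
CPM (linear axis from 0) of each of the 10 genes in the 3 libraries of the WT, Tg4-42 and caffeine-treated Tg4-42 groups, with circles for lane 6, triangles for lane 7, and horizontal bars with whiskers for the mean ± SD. Tac1, Tac2, Crh, Nts and Scg2 lay lower in all 3 caffeine libraries than in any vehicle-treated Tg4-42 library, while the groups overlapped for the other 5 genes.

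The comparison of caffeine-treated with vehicle-treated Tg4-42 mice asked how caffeine in the drinking water was reflected in peptide gene expression of neurons carrying the transgene. The point estimates of 9 of the 10 genes were lower after caffeine, led by the tachykinin precursor Tac1 and the convertase Pcsk1, at 0.439 and 0.429 times the vehicle level. None of the 10 passed the test, edgeR's quasi-likelihood test with Benjamini-Hochberg adjustment over all tested genes, at a background of 0.881% of all genes called. At an unadjusted p under 0.05, 4 of the 10 were lower (Tac1, Tac2, Nts and Scg2) and none was higher, against 9.82% of all genes lower by that measure. DESeq2 called 3 of the 10 (Tac1, Tac2 and Nts) at a background of 5.12% of its tested genes, and limma voom with quality weights called 2 (Tac1 and Pcsk1) at a background of 3.56%. In 5 of the 10, every caffeine library lay below every vehicle library, which was the case for 12.6% of all genes tested. The median log2 fold change was -0.83 over the 10 genes and -0.01 over all genes tested.

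Among the ligands, the tachykinin precursors had the smallest p values. Tac1 (chr6:7554879-7565834, plus strand) encodes the precursor of substance P and neurokinin A. Its CPM was 42.6, 29.6 and 40.6 in WT, 52.0, 34.5 and 71.5 in vehicle-treated Tg4-42, and 17.6, 33.4 and 18.04 in caffeine-treated Tg4-42 mice. The caffeine libraries did not overlap with the vehicle-treated Tg4-42 libraries, although caffeine library 2 came close to vehicle library 2 and lay above the lowest WT library. Caffeine against vehicle gave a log2 fold change of -1.19 (SE 0.30, 95% interval -1.85 to -0.53), with an adjusted p of 0.0903 by edgeR and an exact permutation p of 0.1, the smallest that 3 against 3 libraries can give. Without vehicle library 2 the adjusted p by edgeR was 0.0339, and without caffeine library 2 it was 0.0255, within a range of 0.0255 to 0.422 over the 6 libraries left out in turn. The log2 difference was -0.79 within lane 6 and -1.96 between the lane 7 libraries.

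Tac2 (chr10:127724478-127731768, plus strand), in the mouse the gene of neurokinin B, was also lower in every caffeine library than in any vehicle library. CPM was 12.2, 15.3 and 19.6 in WT, 18.5, 11.8 and 25.1 in vehicle-treated Tg4-42, and 8.51, 10.6 and 8.75 in caffeine-treated Tg4-42 mice. All 3 caffeine libraries were below all 6 others, and their SD of 1.12 CPM was the smallest of the groups. Between caffeine and vehicle the log2 fold change was -0.99 (SE 0.25, 95% interval -1.52 to -0.45), with an adjusted p of 0.0765 by edgeR, and 0.0266 without vehicle library 2, within 0.0266 to 0.381 over the libraries left out in turn. Against WT the log2 fold change was -0.76 (SE 0.25, adjusted p = 0.166 by edgeR). Within lane 6 the log2 difference between caffeine and vehicle was -0.61, and in lane 7 it was -1.47.

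Nts (chr10:102481756-102490486, minus strand) encodes the precursor of neurotensin and neuromedin N. CPM was 20.8, 25.6 and 21.5 in WT, 20.3, 33.9 and 20.8 in vehicle-treated Tg4-42, and 13.2, 20.02 and 8.37 in caffeine-treated Tg4-42 mice. Here too the caffeine libraries were the lowest 3 of the 9, with caffeine library 2 just under the lowest vehicle library. The log2 fold change against vehicle was -0.85 (SE 0.27, 95% interval -1.44 to -0.26, adjusted p = 0.141 by edgeR), and against WT it was -0.70 (SE 0.27, adjusted p = 0.243). The within-lane differences from vehicle on the log2 scale were -0.67 in lane 6 and -1.26 in lane 7.

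The releasing factors Crh and Adcyap1 were the least abundant per length and were uneven within the groups. Crh (chr3:19693401-19695396, minus strand), which encodes corticotropin-releasing hormone, had 2.51, 4.16 and 11.3 CPM in WT, 7.56, 4.42 and 11.3 CPM in vehicle-treated Tg4-42, and 4.40, 4.35 and 3.22 CPM in caffeine-treated Tg4-42 mice. Its lane 7 library was the highest of the WT and of the vehicle group and the lowest of the caffeine group, and caffeine libraries 1 and 2 lay only just below vehicle library 2. The log2 fold change of caffeine against vehicle was -0.95 (SE 0.49, 95% interval -2.03 to 0.13, adjusted p = 0.364 by edgeR), with -0.37 within lane 6 and -1.66 in lane 7.

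Adcyap1 (chr17:93199017-93206537, plus strand) encodes the pituitary adenylate cyclase-activating polypeptide PACAP. CPM was 16.9, 15.9 and 37.2 in WT, 26.3, 19.8 and 33.4 in vehicle-treated Tg4-42, and 24.1, 12.6 and 8.52 in caffeine-treated Tg4-42 mice. Caffeine library 1 overlapped with the vehicle group, and the lane 7 libraries again stood at the upper end of both vehicle groups and at the lower end of the caffeine group. For caffeine against vehicle the log2 fold change was -0.81 (SE 0.44, adjusted p = 0.396 by edgeR), with -0.38 within lane 6 and -1.91 in lane 7.

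Cck and both opioid precursors were the ligands with the smallest differences. Cck (chr9:121489824-121495694, minus strand), the gene of cholecystokinin, had 209, 365 and 392 CPM in WT, 262, 329.6 and 352 CPM in vehicle-treated Tg4-42, and 258, 348 and 279.5 CPM in caffeine-treated Tg4-42 mice. The 3 groups overlapped and the widest spread was within WT. The log2 fold change of caffeine against vehicle was -0.09 (95% interval -0.53 to 0.35, adjusted p = 0.854 by edgeR).

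Penk, the precursor of the enkephalins, had 125, 161 and 128 CPM in WT, 109, 163 and 141 CPM in vehicle-treated Tg4-42, and 106, 142 and 133 CPM in caffeine-treated Tg4-42 mice. These ranges almost coincided, and the log2 fold change of caffeine against vehicle was -0.12 (95% interval -0.46 to 0.22, adjusted p = 0.748 by edgeR). The exons of Penk (chr4:4133531-4138819, minus strand) share 233 bases with those of A830012C17Rik on the opposite strand, and reads of the pair cannot be told apart without strand.

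Pdyn (chr2:129686565-129699844, minus strand), the dynorphin precursor, was the single gene of the 10 with a higher point estimate after caffeine. CPM was 48.5, 70.5 and 77.01 in WT, 73.3, 49.3 and 62.2 in vehicle-treated Tg4-42, and 75.6, 57.2 and 75.2 in caffeine-treated Tg4-42 mice. Libraries of all groups were interleaved, and the log2 fold change was 0.17 (95% interval -0.21 to 0.56, adjusted p = 0.676 by edgeR). The summed level of 8 dentate granule cell markers lay between 686 and 935 CPM in the caffeine libraries, above the 292 to 589.7 CPM of the vehicle-treated Tg4-42 libraries. Of these markers 8 of 8 were higher and 2 of 8 called higher, against 8421 higher and 37 called higher of all 17361 genes tested. The list includes Dsp and Prox1, which the authors reported as raised by caffeine in these same data, so these counts are not independent of that report. Whether the level of the dentate markers contributed to the value of Pdyn was not tested. In bulk RNA of sorted nuclei, fewer nuclei of a type and less RNA per nucleus cannot be told apart, which applies to each of the 10 genes.

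**Figure D2:**
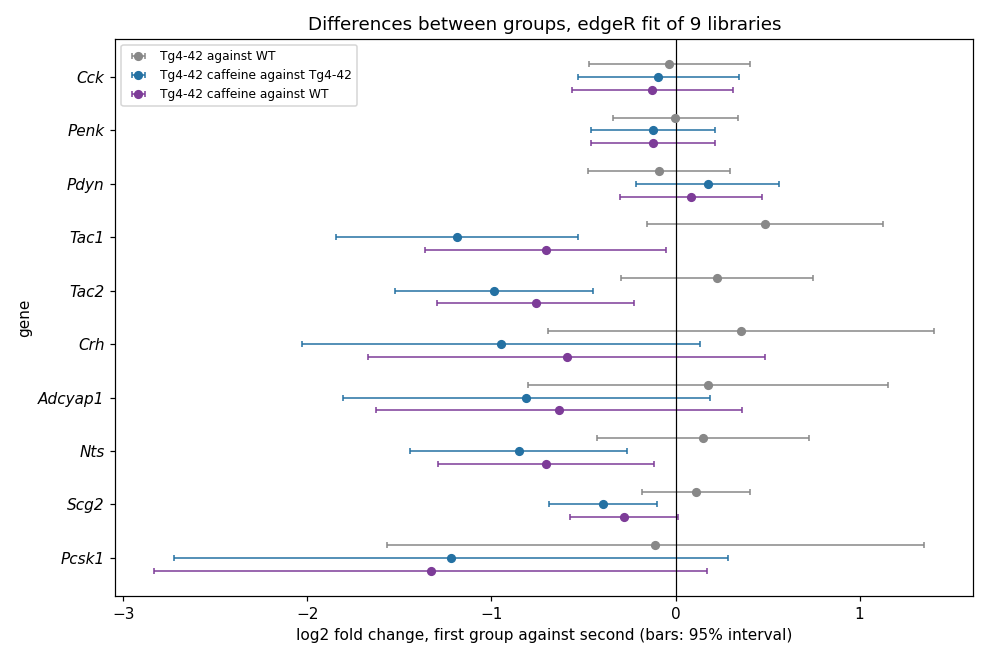
Log2 fold changes (points) with 95% intervals (bars) of the 10 genes from the edgeR fit of all 9 libraries, for Tg4-42 against WT, caffeine-treated against vehicle-treated Tg4-42, and caffeine-treated Tg4-42 against WT. Between caffeine and vehicle the intervals of Tac1, Tac2, Nts and Scg2 lie below 0, those of Pcsk1, Crh and Adcyap1 are the widest and include 0, and those of Cck, Penk and Pdyn are centred near 0.

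Scg2 (chr1:79434669-79440120, minus strand), the gene of the granin secretogranin II and the most abundant of the 10 per length, had a smaller difference with a narrower interval. Its CPM was 635, 763 and 718 in WT, 695, 771 and 817 in vehicle-treated Tg4-42, and 682, 541 and 517 in caffeine-treated Tg4-42 mice. Every caffeine library was below every vehicle-treated Tg4-42 library, while caffeine library 1 was above the lowest WT library. Scg2 had a log2 fold change of -0.39 for caffeine against vehicle (SE 0.14, 95% interval -0.69 to -0.10), with an adjusted p of 0.168 by edgeR. It was -0.27 within lane 6 and -0.66 in lane 7.

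Pcsk1 (chr13:75089826-75134861, plus strand), the gene of prohormone convertase 1/3, varied more between libraries than any other of the 10. Its CPM was 51.5, 49.4 and 118 in WT, 62.7, 46.6 and 94.1 in vehicle-treated Tg4-42, and 52.3, 23.1 and 11.8 in caffeine-treated Tg4-42 mice. Caffeine library 1 lay within the range of both other groups, and the lane 7 libraries were the highest of the WT and vehicle groups and the lowest of the caffeine group. Pcsk1 had a log2 fold change of -1.22 for caffeine against vehicle (SE 0.63, 95% interval -2.73 to 0.29), with an adjusted p of 0.390 by edgeR. The log2 difference was -0.63 within lane 6 and -2.94 between the lane 7 libraries, and without caffeine library 3 the fitted log2 fold change was -0.85.

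Transcription of several peptide genes is known to respond to cAMP through the cAMP response element, TGACGTCA, of which TGACG is the core. RefSeq promoter windows, from 250 bases before to 50 after the start (GRCm38.p6), were found for 8 of the 10 genes. There was no entry for Penk or Crh. The full element, searched on both strands, was present in the windows of Scg2 and Pcsk1, the granin and the convertase, against 1.79% of all 32851 windows and 2.03% of the gene symbols with a window. The core, which is also part of the full element, was present in either orientation for 6 of the 8 genes (Cck, Tac1, Adcyap1, Nts, Scg2 and Pcsk1), against 20.81% of all windows and 23.05% of the gene symbols. Pdyn and Adcyap1 have more than 1 window each. The windows of Pdyn and Tac2 do not hold these letters. The stretches shown are those of Scg2 (chr1:79440076-79440105, minus strand, motif 68 bases before the start), of Pcsk1 (chr13:75089768-75089797, plus strand, 78 bases before the start) and of Adcyap1 (chr17:93198913-93198942, plus strand, 91 bases before the start), to compare the full element of the granin and the convertase with a core match of a ligand, each in the direction of the gene with the match in capitals. Starts are those of RefSeq. The 5′ end of Scg2 in GENCODE lies 94 bases further upstream, so that its stretch is within an exon of that annotation, and the stretches of Pcsk1 and Adcyap1 lie outside exons of their genes.
Scg2: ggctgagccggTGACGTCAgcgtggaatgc
Pcsk1: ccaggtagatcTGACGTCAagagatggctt
Adcyap1: gggactaggatgcTGACGtcttttactgat
These matches are a description of the sequence only.

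The genes around these members were taken from lists of the pathway. Among 6 other granins and granin helpers, 1 was called between caffeine and vehicle, Chga, which encodes chromogranin A. Its CPM was 232, 267 and 255 in WT, 296, 255 and 278 in vehicle-treated Tg4-42, and 209.9, 181 and 176 in caffeine-treated Tg4-42 mice. Chga fell in caffeine-treated Tg4-42 mice, with a log2 fold change of -0.55 (SE 0.12, adjusted p = 0.0469 by edgeR) and with all caffeine libraries below the 6 others. The adjusted p lay between 0.0317 and 0.303 over the 6 fits that left out a library, and the call held in 2 of them, without vehicle library 2 and without caffeine library 1. Scg3, encoding secretogranin III, had a log2 fold change of -0.73 and an adjusted p of 0.0562. In all, 5 of the 6 genes were lower at an unadjusted p under 0.05, against 9.82% of all genes. Pcsk1n, the gene of the convertase inhibitor proSAAS, had a log2 fold change of 0.26 in the other direction. The median of the 6 was -0.52.

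Of 9 further processing enzymes, Qpct, encoding the glutaminyl cyclase that modifies the N-terminus of peptides, was called lower between caffeine and vehicle. CPM of Qpct was 40.2, 46.8 and 41.6 in WT, 40.5, 51.9 and 49.7 in vehicle-treated Tg4-42, and 25.8, 32.7 and 21.0 in caffeine-treated Tg4-42 mice, so that the caffeine libraries were the lowest 3 of the 9. Its log2 fold change was -0.84 (SE 0.16, adjusted p = 0.0399 by edgeR), and the call held without caffeine library 1 or 2 but not without any other library, with adjusted p values between 0.0243 and 0.278. Pcsk2, the gene of the second neuroendocrine convertase, had a log2 fold change of -0.50 with an adjusted p of 0.159. Over the 9 enzymes, 5 were lower and 4 higher, with a median log2 fold change of -0.04.

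Among 18 receptors and binding proteins of these peptides, 16 could be tested and 1 was called between caffeine and vehicle. This was Crhbp, encoding the binding protein of corticotropin-releasing hormone, with 60.4, 69.7 and 66.9 CPM in WT, 81.4, 60.7 and 110.5 CPM in vehicle-treated Tg4-42, and 35.6, 52.2 and 35.8 CPM in caffeine-treated Tg4-42 mice. The caffeine libraries were below all others, and the log2 fold change against vehicle was -1.03 (SE 0.20, adjusted p = 0.0399 by edgeR). The call held without vehicle library 2 or caffeine library 2 but not without any other library, with adjusted p values between 0.0107 and 0.278. With the lane as a covariate the adjusted p values by edgeR were 0.0695 for Chga, 0.0554 for Qpct and 0.0582 for Crhbp, at log2 fold changes of -0.55, -0.85 and -1.01. On lane 6 alone, where no gene of the table was called, their log2 fold changes were -0.48, -0.65 and -0.68 with adjusted p values of 0.828, 0.817 and 0.817. With only these groups fitted, the adjusted p of Crhbp was 0.0652. Tacr3, the receptor of neurokinin B, had a log2 fold change of -0.84 (adjusted p = 0.110) against vehicle and was called against WT, with -1.19 (SE 0.25, adjusted p = 0.0494 by edgeR). Its CPM was 12.1, 15.7 and 14.1 in WT, 10.8, 12.4 and 9.62 in vehicle-treated Tg4-42, and 4.40, 8.97 and 4.91 in caffeine-treated Tg4-42 mice, with the caffeine libraries below the 6 others. Among the fits that left out a library, this call held only without caffeine library 2, at adjusted p values between 0.00813 and 0.382. It was lost with the lane as a covariate (0.0656), on lane 6 alone (0.535), with RLE scaling (0.0508) and with only these groups fitted (0.0540), at log2 fold changes between -1.20 and -1.05. The median log2 fold change of the 16 between caffeine and vehicle was -0.18, with 10 lower and 6 higher.

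None of the 16 tested genes among 21 other peptide precursors was called by edgeR between caffeine and vehicle. At an unadjusted p under 0.05, 8 of them were lower, against 9.82% of all genes. In all 14 were lower, against 51.5% of all genes tested, with a median log2 fold change of -0.56. The smallest p values were those of Cartpt, the precursor of CART peptides, with a log2 fold change of -1.01 (adjusted p = 0.129), and of Nucb2, the nesfatin precursor, with -0.40 (adjusted p = 0.143). Of 8 genes of dense core vesicle release none was called by edgeR, and 2 were lower at an unadjusted p under 0.05, Syt4 with -0.65 and Ptprn with -0.34, around a median of -0.09. Syt4 was called by DESeq2 and by limma voom. None of 18 activity-regulated genes was called by edgeR or had an unadjusted p under 0.05, and their median was -0.19, with the smallest p values for Nr4a3 at 0.49 and Inhba at -0.36. Over all lists, edgeR called 3 of 73 tested genes between caffeine and vehicle, at a background of 0.881% of all genes. There were 21 at an unadjusted p under 0.05, all of them lower, against 9.82% of all genes lower by that measure. DESeq2 called 8 and limma voom 7, at the same backgrounds of 5.12% and 3.56%.

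**Figure D3:**
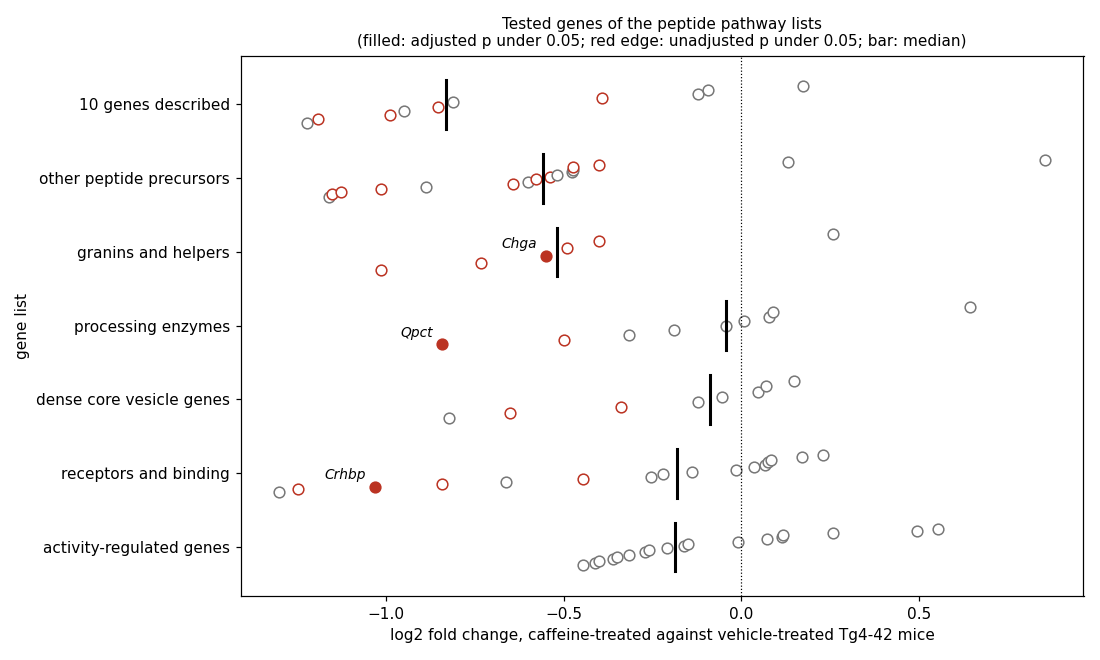
Log2 fold changes between caffeine-treated and vehicle-treated Tg4-42 mice of the tested genes in each list, with filled points for an adjusted p under 0.05, red edges for an unadjusted p under 0.05, and a black bar for the median of the list. Chga, Qpct and Crhbp are the called genes, and the medians lie at -0.83 for the 10 genes described, -0.56 for other peptide precursors, -0.52 for granins, and between -0.19 and -0.04 for the remaining lists.

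Markers of neuron types differed between the libraries in the following way. The summed level of 7 markers of the subiculum and neocortex was 274, 198 and 325 CPM in WT, 270.4, 186 and 317 CPM in vehicle-treated Tg4-42, and 199.8, 123 and 86.6 CPM in caffeine-treated Tg4-42 mice, with the highest value of the WT and vehicle groups and the lowest of the caffeine group in library 3, as for Pcsk1, Adcyap1 and Crh. Fn1 and Cplx3 of this list departed from that course. Fn1 was lowest in library 3 of the WT (37.8 CPM) and vehicle (47.6 CPM) groups, and Cplx3 was lowest of the caffeine group in library 2 (4.35 CPM). All 7 markers were detected and had lower point estimates after caffeine, against 51.5% of all genes tested. None was called by edgeR, with 2 at an unadjusted p under 0.05, against 9.82% of all genes lower by that measure. Cckbr, the gene of a cholecystokinin receptor, was chosen after its values were seen and was, like the sum, highest in library 3 of the WT and vehicle groups and lowest in caffeine library 3. It had 61.8, 61.7 and 202 CPM in WT, 129.8, 72.4 and 186 CPM in vehicle-treated Tg4-42, and 94.3, 38.7 and 24.6 CPM in caffeine-treated Tg4-42 mice.

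The summed level of 8 interneuron markers lay between 711 and 754 CPM after caffeine, below the 861 to 1158 CPM of vehicle-treated Tg4-42 and the 832 to 914 CPM of WT libraries. Of these 8, 7 had lower point estimates than in the vehicle group, against 51.5% of all genes tested. By edgeR 1 of the 8 was called lower, against 116 of all 17361 genes tested. Adarb2 went the other way, with mean levels of 100.5 CPM in vehicle-treated and 115.5 CPM in caffeine-treated Tg4-42 mice. The sum of 5 CA1 markers was 429 to 503 CPM in vehicle-treated and 373 to 406 CPM in caffeine-treated Tg4-42 mice. None of the 5 was called between these groups, and 4 had lower point estimates, against 51.5% of all genes tested. At an unadjusted p under 0.05, 2 were lower, against 9.82% of all genes, and 1 was higher, Pou3f1 with a log2 fold change of 0.70. In caffeine-treated Tg4-42 against WT mice 1 of the 5 was called lower, against 47 of all 17361 genes tested. All 3 CA3 markers had higher point estimates after caffeine, as did the dentate granule cell markers, and none of the 3 was called. The part of these cell populations in the values of Tac1, Tac2, Nts, Crh, Adcyap1 and Pcsk1 was not tested.

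**Figure D4:**
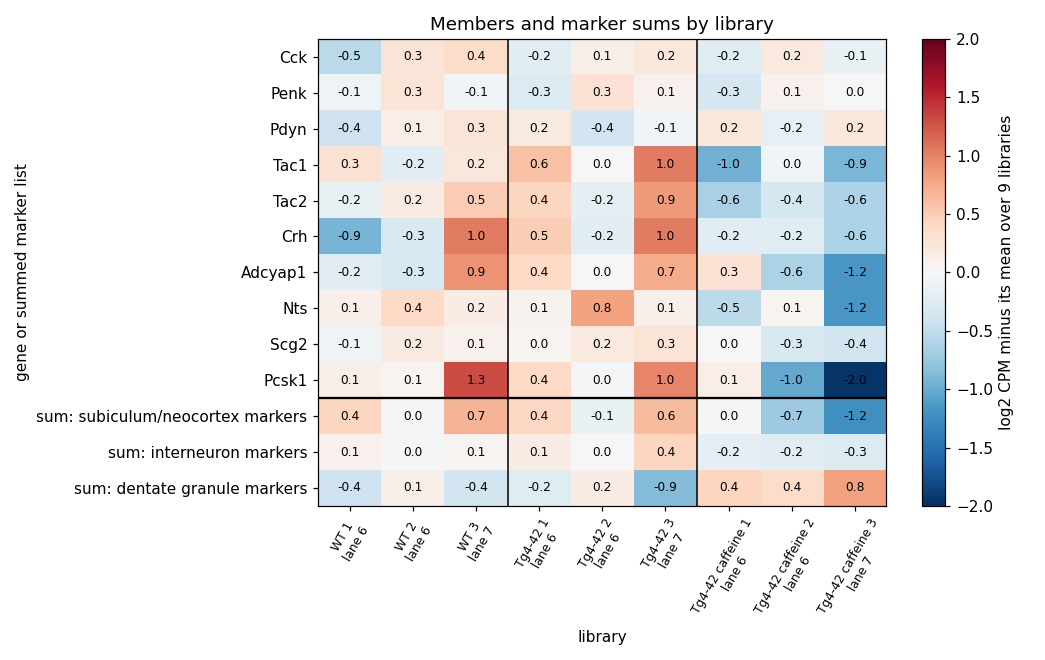
Log2 CPM of the 10 genes and of 3 summed marker lists in each library, minus the mean over the 9 libraries of the same row, with red above and blue below that mean. The library 3 columns of WT and vehicle-treated Tg4-42 are highest and that of caffeine-treated Tg4-42 is lowest for Pcsk1, Adcyap1 and the subiculum and neocortex sum, while the dentate granule cell sum is highest in the caffeine libraries.

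Within lane 6, the caffeine libraries had the lower mean log2 CPM for 8 of the 10 genes, and between the lane 7 libraries for 9 of the 10. In 9 of the 10 the difference was larger in size in lane 7, where each group has 1 library, so that it rests on single values. The shares of all genes with these patterns were not counted. A fit of the 6 lane 6 libraries alone, chosen after seeing the data, gave log2 fold changes between caffeine and vehicle of -0.74 for Tac1, -0.64 for Tac2, -0.70 for Nts, -0.25 for Scg2, -0.42 for Crh, -0.31 for Adcyap1 and -0.52 for Pcsk1, with none called and 0 genes called among all genes tested. With the lane as a covariate, Tac1 had an adjusted p of 0.123 and Tac2 of 0.0797 by edgeR.

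The comparison of vehicle-treated Tg4-42 with WT mice asked what the transgene alone was associated with. None of the 10 genes was called by edgeR, DESeq2 or limma voom, at a background of 0.0979% of all genes called by edgeR, and none had an unadjusted p under 0.05. The groups overlapped for all 10 genes, and the log2 fold changes lay between -0.11 for Pcsk1 and 0.48 for Tac1, with a median of 0.13. For Tac1 the 95% interval ran from -0.16 to 1.13, and for Scg2 from -0.18 to 0.40, so that moderate differences in Tac1 could not be resolved with these libraries. In the pathway lists no gene was called by edgeR, DESeq2 or limma voom, and 6 had an unadjusted p under 0.05. Higher among these were Npy, the neuropeptide Y precursor, with a log2 fold change of 0.41, Pnoc, the nociceptin precursor, with 0.41, and Inhba, an activity-regulated activin subunit, with 0.77 and the smallest adjusted p of 0.607. Lower were Junb with -0.50, Nr4a3 with -0.49 and Vipr2, a receptor of PACAP, with -2.33. The value of Vipr2 came with 14.96 CPM in WT library 1, against 0.552 to 2.001 CPM in the 8 other libraries.

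Caffeine-treated Tg4-42 mice were also set against WT mice, a comparison that shares its libraries with both others. None of the 10 genes was called by edgeR, DESeq2 or limma voom, at a background of 0.415% of all genes called by edgeR. At an unadjusted p under 0.05, 3 of the 10 were lower (Tac1, Tac2 and Nts), against 8.65% of all genes, and for Tac2 and Nts all caffeine libraries lay below all WT libraries, which was so for 9.65% of all genes tested. Log2 fold changes were -0.70 for Tac1 (SE 0.30, adjusted p = 0.291), -0.28 for Scg2 (SE 0.14, adjusted p = 0.343) and -1.33 for Pcsk1 (SE 0.63, adjusted p = 0.377 by edgeR). In 9 of the 10 the point estimate was lower and in Pdyn it was higher, at 0.08, and the median over the 10 was -0.61. In the lists, Chga had a log2 fold change of -0.41, Scg3 of -0.68, Qpct of -0.69, Crhbp of -0.67 and Syt4 of -0.55, none of them called by edgeR. Among the 2 smallest p values of their lists were also Calca at -0.62, Nppc at -0.54, Pcsk2 at -0.46 and Ptprn at -0.34. Nr4a2 was at -0.59 and Inhba, in the other direction, at 0.41, and none of these was called by edgeR. Tacr3 was the single gene of the lists that edgeR called. Of the 73 list genes tested, 17 had an unadjusted p under 0.05, 16 of them lower. Over all 17361 genes tested it was 2679, with 1502 of them lower. DESeq2 called 5 genes of the lists, Chga, Scg3, Qpct, Crhbp and Tacr3, at a background of 3.85%.

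For the 3 members with the widest range of group means, the genes with the most similar course over the 9 libraries were taken by the root mean square difference of centred log2 CPM. Pcsk1, which itself varied by a root mean square of 0.93 around its mean, was nearest to Atp6ap1l at 0.24, Pamr1 at 0.24 and Bmp3 at 0.25. Tac1, with 0.61 around its own mean, was nearest to Adamts5 at 0.19, Hgf at 0.20 and Cntnap3 at 0.21. Tac2, with 0.49, was nearest to Rgsl1 at 0.11, Dmrt2 at 0.12 and Igsf21 at 0.13. The points of each of these comparisons share their libraries, and the values describe likeness of course only.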

How the data were processed

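NeuN-positive nuclei were sorted from frozen hippocampal tissue, and libraries were made with SMART-Seq v4 and Nextera XT and read as single ends. Per the labels and the methods, the authors aligned the reads to mm10 with STAR and counted reads on exons with featureCounts, and deposited raw counts per gene. Versions and the strand setting are not given in the sources used here.

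Symbols, positions and exon lengths of 48349 of the 48709 genes came from GENCODE M21. In R 4.3.3, genes were filtered with filterByExpr (minimum count 10, minimum total 15), libraries were scaled by TMM, and all 9 were fitted together in edgeR 4.0.16 (quasi-likelihood, robust), with contrasts between groups, Benjamini-Hochberg adjustment and a threshold of 0.05. Log2 CPM used a pseudocount of 0.5, and single genes were also given two-sided exact permutation tests on it. RPKM was the CPM per kilobase of merged exons. Library totals were 9342945 to 16376922 counts. Crh, a low gene, also spread widely between libraries, with a mean of 5.99 and an SD of 4.67 CPM in WT. The isolation protocol in the labels gives 6 samples per group and the methods 3, and 3 libraries per group are listed. Nothing in the labels beyond their titles ties them to separate mice, so p values measure the spread between these libraries. Replicate libraries differed by more than sampling noise (chi-square per gene at least 8.76). The edgeR script was tested on simulated data.

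Alternatives were DESeq2 1.42.0, RLE scaling, no filter, a filter at a mean of 50 counts, lane as a covariate, only the groups compared, limma 3.58.1 voom with quality weights, each library left out in turn and, chosen after seeing the data, lane 6 alone. The 10 genes and all lists (other peptide precursors, granins, processing enzymes, dense core vesicle genes, receptors, activity-regulated genes, cell type markers) were chosen with earlier results of these data known. Named are all 10 genes and each gene of the pathway lists that edgeR called. For the caffeine group against either other group, the 2 genes with the smallest p in each pathway list are also named. For the vehicle-treated transgenic group against WT, the list genes named are those with an unadjusted p under 0.05. Exceptions are a granin named for its opposite direction and genes said to be chosen after their values were seen. Promoter windows came from RefSeq (GRCm38.p6), and protein sequences were not used here.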

Additional observations from a re-analysis of the deposited data

How the results depend on the processing

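No paired analysis was possible because the labels give the libraries no replicate numbers, and the numbers 1 to 3 used here only name the libraries of a group. Of the 10 genes, none was called between caffeine and vehicle in the main analysis, against 153 of all 17361 genes tested. Without a filter on low counts 6 were called, against 987 of the 30820 genes with a count. The unfiltered adjusted p of Pcsk1 was 8.11e-12 by edgeR, although its caffeine library 1 lay within the vehicle range. DESeq2 called 3 and limma voom 2, at backgrounds of 5.12% and 3.56%, and 0 to 2 were called with a library left out. Against WT, 5 were called without a filter, beside 860 of all genes in that fit. Among the pathway genes, 3 were called between caffeine and vehicle, and 16 without a filter, 8 by DESeq2, 7 by limma voom, 0 with the lane as a covariate, 0 on lane 6 alone and 0 to 5 with a library left out. Against WT, 1 was called, and 16 without a filter, 5 by DESeq2, 0 with RLE scaling, 0 with the lane as a covariate, 0 with only the groups compared, 0 on lane 6 alone and 0 to 3 with a library left out. Between Tg4-42 and WT, 1 was called without a filter and 0 otherwise. Over all genes, 153 were called between caffeine and vehicle, and 987 without a filter, 747 by DESeq2, 618 by limma voom, 9 with the lane as a covariate, 0 on lane 6 alone and 0 to 341 with a library left out. Against WT, 72 were called, and 860 without a filter, 540 by DESeq2, 42 with the lane as a covariate, 17 on lane 6 alone and 16 to 287 with a library left out. Between Tg4-42 and WT, 17 were called, and 74 without a filter. The fits that left some out also had fewer libraries, and the causes of these differences were not tested.

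The sign of the log2 fold change turned for small differences. For Tg4-42 against WT, Penk was at 0.0047 with the filter at a mean of 50 counts, and on lane 6 alone Cck was at 0.035, Pdyn at 0.027 and Pcsk1 at 0.10. On lane 6 alone Cck was at 0.049 for caffeine against vehicle, and against WT Cck was at 0.084, Crh at 0.39 and Adcyap1 at 0.16. With a library left out, the range for Tg4-42 against WT was -0.27 to 0.13 for Cck, -0.14 to 0.14 for Penk, -0.26 to 0.049 for Pdyn, -0.074 to 0.47 for Tac2, -0.034 to 1.19 for Crh, -0.039 to 0.68 for Adcyap1, -0.14 to 0.28 for Nts and -0.43 to 0.42 for Pcsk1. For caffeine against WT it was -0.36 to 0.046 for Cck, -0.21 to 0.0041 for Penk, -0.090 to 0.22 for Pdyn and -0.95 to 0.25 for Crh. For caffeine against vehicle it was -0.23 to 0.011 for Cck and -0.26 to 0.023 for Penk, and the other 8 of the 10 genes kept their sign under all alternatives run.

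With 3 libraries a group, the 95% intervals of Crh, Adcyap1 and Pcsk1 included 0 in every comparison, and Crh rests on as few as 32 counts in a library. Single genes cannot go below an exact permutation p of 0.1.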

Other observations

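Precursors that mark interneuron classes, chosen after their values were seen, had the following levels. Vip, the precursor of vasoactive intestinal peptide, had 159.6, 112 and 288 CPM in WT, 215, 124 and 324 CPM in vehicle-treated Tg4-42, and 97.7, 104 and 102 CPM in caffeine-treated Tg4-42 mice. All 3 caffeine libraries were below all 6 others, and the log2 fold change of caffeine against vehicle was -1.13 (SE 0.42, adjusted p = 0.233 by edgeR). Sst, the somatostatin precursor, had 182, 223 and 197 CPM in WT, 230.3, 184 and 309 CPM in vehicle-treated Tg4-42, and 108, 222 and 134 CPM in caffeine-treated Tg4-42 mice, so that caffeine library 2 overlapped with both other groups. Its log2 fold change was -0.64 (SE 0.25, adjusted p = 0.222 by edgeR).

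Vgf, a granin-like gene induced by neuronal activity, was also chosen after its values were seen. It had 54.4, 82.1 and 137 CPM in WT, 104, 99.4 and 130.4 CPM in vehicle-treated Tg4-42, and 58.3, 58.7 and 48.3 CPM in caffeine-treated Tg4-42 mice. The caffeine libraries lay below the vehicle group and overlapped with WT library 1, and the log2 fold change of caffeine against vehicle was -1.01 (SE 0.27, adjusted p = 0.104 by edgeR).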
